A study of Mus musculus with 6 samples.

Results

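The circadian clock genes Nr1d1, Dbp, Per1, Bhlhe40 and Arntl were followed in MLO-Y4 cells, an osteocyte-like mouse line (osteocytes sit inside the bone matrix). They are 5 of the 2065 genes in the deposited table, picked by symbol with their values in this comparison already known. All 5 symbols were found, each in 1 row, and all 5 passed the filter on low values. The 6 messenger RNA libraries carry the labels normoxia (20% O2, replicates 2, 3 and 4) and hypoxia (2% O2 in a hypoxic chamber, replicates 1, 2 and 4). All were given the genotype WT and the same serum-containing medium, at 24 h by the titles. The free-text descriptions give 24, 25 and 26 h within each label, in the order of the replicate numbers, and no clock time of harvest is stated. The labels do not say whether replicates came from separate cultures, and their spread may be technical. MLO-Y4 is 1 immortalised clone, which limits what it says of osteocytes in bone.

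The mammalian clock is a transcriptional feedback loop. Arntl encodes BMAL1, which with CLOCK activates genes through E-boxes, among them the period genes, Nr1d1, Dbp and the BHLHE40 repressors. The period and cryptochrome proteins, and BHLHE40, then repress that activator. REV-ERBalpha, the product of Nr1d1, represses Arntl through ROR elements, so that Nr1d1 and Arntl normally peak at opposite times of day. Bhlhe40 is also a known target of the hypoxia-inducible factor HIF-1, and Per1 responds quickly to cAMP and glucocorticoids.

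Promoter windows are shown because elements of this kind are known to link the clock genes. The windows, from RefSeq on GRCm38.p6, run 5′ to 3′ on the gene's strand from 250 bases before to 50 after an annotated start. Of the 5 genes, 4 had an entry, with 6 windows between them. Bhlhe40 was not matched. Capitals mark every match, on either strand, to the motifs named after the sequences.

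Per1, first of 2 starts, chr11:69098699-69098998, plus strand: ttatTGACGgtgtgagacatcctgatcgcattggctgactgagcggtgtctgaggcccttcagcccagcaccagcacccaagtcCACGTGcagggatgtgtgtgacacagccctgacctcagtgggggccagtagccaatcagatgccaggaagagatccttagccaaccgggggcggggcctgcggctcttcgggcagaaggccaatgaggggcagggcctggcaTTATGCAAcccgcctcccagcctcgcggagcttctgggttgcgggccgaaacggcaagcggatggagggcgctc
Nr1d1, chr11:98775328-98775627, minus strand: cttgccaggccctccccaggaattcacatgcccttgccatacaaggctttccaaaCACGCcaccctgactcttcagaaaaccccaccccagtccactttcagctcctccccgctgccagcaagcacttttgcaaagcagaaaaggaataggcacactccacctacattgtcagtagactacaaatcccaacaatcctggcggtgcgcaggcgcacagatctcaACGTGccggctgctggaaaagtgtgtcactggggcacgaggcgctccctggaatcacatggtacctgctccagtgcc
Dbp, chr7:45704997-45705296, plus strand: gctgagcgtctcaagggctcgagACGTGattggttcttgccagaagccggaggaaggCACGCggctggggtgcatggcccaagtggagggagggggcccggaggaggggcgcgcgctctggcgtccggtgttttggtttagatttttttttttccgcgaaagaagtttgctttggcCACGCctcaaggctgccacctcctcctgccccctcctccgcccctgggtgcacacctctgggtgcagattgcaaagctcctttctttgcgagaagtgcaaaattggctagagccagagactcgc
Arntl, the second of 2 starts, chr7:113207261-113207560, plus strand: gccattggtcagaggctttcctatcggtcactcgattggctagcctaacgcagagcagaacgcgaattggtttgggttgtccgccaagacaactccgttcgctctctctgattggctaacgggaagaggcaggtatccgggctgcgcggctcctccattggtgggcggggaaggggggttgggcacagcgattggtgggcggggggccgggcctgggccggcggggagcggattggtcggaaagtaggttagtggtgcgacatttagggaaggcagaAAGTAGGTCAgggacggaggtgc

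The second Arntl window holds an extended ROR element (the site read by REV-ERB and ROR proteins) that begins at position 28 of the transcript, and 0.219% of 32851 RefSeq promoter windows hold one. The shorter core TAGGTCA lies inside that match, and 2.61% of windows hold it. Neither was found in the other windows of the listed clock genes. The first Per1 window holds an E-box (CACGTG) that begins at -166 from the start and a D-box (TTATGNAA, bound by DBP and its relatives) at -24, which 7.15% and 3.39% of all windows hold. The short cAMP element TGACG occurs once in each Per1 window and in 20.8% of all windows, while the full element TGACGTCA (1.79%) and the palindromic glucocorticoid element (0.00913%) matched in none of them. Short HIF cores are ACGTG (19.6% of all windows) and GCGTG (32.4%), and ACGTG also sits inside every E-box. At least 1 of these cores occurs in every window of the listed clock genes except those of Arntl. No E-box, D-box or ROR element matched in the Nr1d1 and Dbp windows, which says only that these letters are not in these windows. A match is a description of letters, and its use in these cells was not measured.

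**Figure D1:**
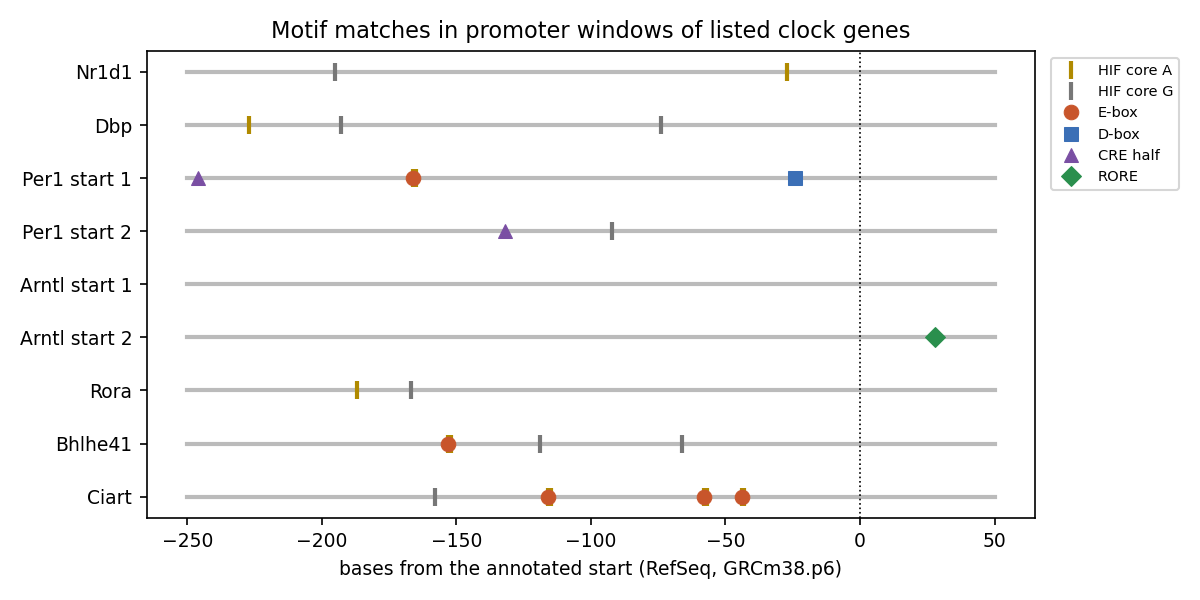
Matches to 6 motifs in the RefSeq promoter windows (horizontal axis: bases from the annotated start) of listed clock genes, 1 line per window, where HIF core A is ACGTG and HIF core G is GCGTG. The ROR element (RORE) appears only in the second Arntl window, at 28, the first Per1 window holds an E-box at -166 and a D-box at -24, and the first Arntl window is empty.

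The deposited entries were read as log2(value + 1). The linear unit is not named, so levels are compared for 1 gene at a time and not between genes. Sequencing depth is unknown, so differences between libraries also depend on the scaling taken. The authors kept in the table only genes that changed between the labels, all with a log2 fold change of 1.00 or more in either direction. Values of the clock genes are therefore a description, with no test. All differences are the libraries labelled hypoxia minus those labelled normoxia. HIF targets went against the labels: of 35 on a list, 21 were in the table, and limma (Benjamini-Hochberg adjusted p under 0.05) called 19 lower and 2 higher in the libraries labelled hypoxia. The glucose transporter gene Slc2a1 had a difference of -3.13 ± 0.09 (SE), the prolyl hydroxylase gene Egln1 of -1.60 ± 0.11, Bnip3, of mitophagy, of -2.02 ± 0.10 and the vascular growth factor gene Vegfa of -1.03 ± 0.07. Directions are for this reason given by label only. If the labels of the groups were exchanged, every difference and every fall or rise below would turn, and this was not tested. By the same test every one of the 2056 tested genes passed (100%). Across the table, 79.4% of them were called higher and 20.6% lower, and 99.9% had no overlap between the labels. In bulk RNA, fewer cells of a type and less RNA per cell cannot be told apart.

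Nr1d1 (ENSMUSG00000020889, chromosome 11), the repressor of Arntl, had linear values of 223, 240 and 274 in normoxia replicates 2, 3 and 4, and of 14.1, 15.2 and 12.9 in hypoxia replicates 1, 2 and 4. All 3 libraries labelled hypoxia lay far below all 3 labelled normoxia, at 5.72% of their mean. On the log2(value + 1) scale the means were 7.94 ± 0.15 (SD, n = 3) and 3.91 ± 0.11, a difference of -4.03 ± 0.09 (SE). This was the seventh largest fall of the table, and the authors' deposited sheet of the 15 largest falls includes it with a log2 fold change of -4.03.

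Bhlhe40 (ENSMUSG00000030103, chromosome 6), which encodes a repressor that competes for E-boxes, was at 1051, 995 and 1204 under the normoxia label and at 102, 105 and 97.8 under the hypoxia label. The labels were again well apart, with a ratio of linear means of 10.6 and a difference of -3.40 ± 0.09 (SE) on the log2(value + 1) scale. It is the other clock gene in the authors' deposited sheet of the 15 largest falls, in place 10. Its paralogue Bhlhe41, with the same role in the clock, was lower too, at 42.0, 43.7 and 43.6 against 9.52, 9.99 and 7.55, a difference of -2.15 ± 0.11.

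Per1 (ENSMUSG00000020893, chromosome 11), a period gene whose protein holds back BMAL1, was at 32.2, 36.0 and 39.4 under the normoxia label and at 6.36, 6.41 and 5.34 under the hypoxia label. The lowest library labelled normoxia stood 2.16 above the highest labelled hypoxia on the log2(value + 1) scale, and the difference of means was -2.39 ± 0.11 (SE). Per1 had among the widest scatter of the 5 genes, with a coefficient of variation of 10.1% and 9.97% in the respective labels.

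Dbp (ENSMUSG00000059824, chromosome 7), an output gene that encodes a D-box activator, was at 67.2, 70.6 and 73.1 under the normoxia label and at 11.3, 11.2 and 10.8 under the hypoxia label. Libraries within a label lay close together, with coefficients of variation of 4.16% and 2.09%. The linear means differed 6.33-fold and the difference was -2.56 ± 0.07 (SE) on the log2(value + 1) scale. Across the 6 libraries Dbp and Per1 were the most alike pair of the 5, with a root mean square difference of 0.113 between their centred log2 profiles.

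Arntl (ENSMUSG00000055116, chromosome 7), the activator, was the only one of the 5 that was higher under the hypoxia label, with 5.02, 4.85 and 4.29 in normoxia replicates 2, 3 and 4 against 14.4, 14.3 and 14.3 in hypoxia replicates 1, 2 and 4. The last 3 were almost level, with a coefficient of variation of 0.456% against 8.04% under the normoxia label. The linear means differed 3.04-fold, and the log2(value + 1) means of 2.51 ± 0.10 and 3.94 ± 0.01 (SD, n = 3) gave a difference of 1.43 ± 0.09 (SE). That difference was near the bulk of the table: the median of all tested genes was 1.15, and Arntl was in place 473 among the rises. With the table median subtracted, Arntl stood at 0.27, and the others stood at -5.18 (Nr1d1), -4.55 (Bhlhe40), -3.71 (Dbp) and -3.54 (Per1).

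**Figure D2:**
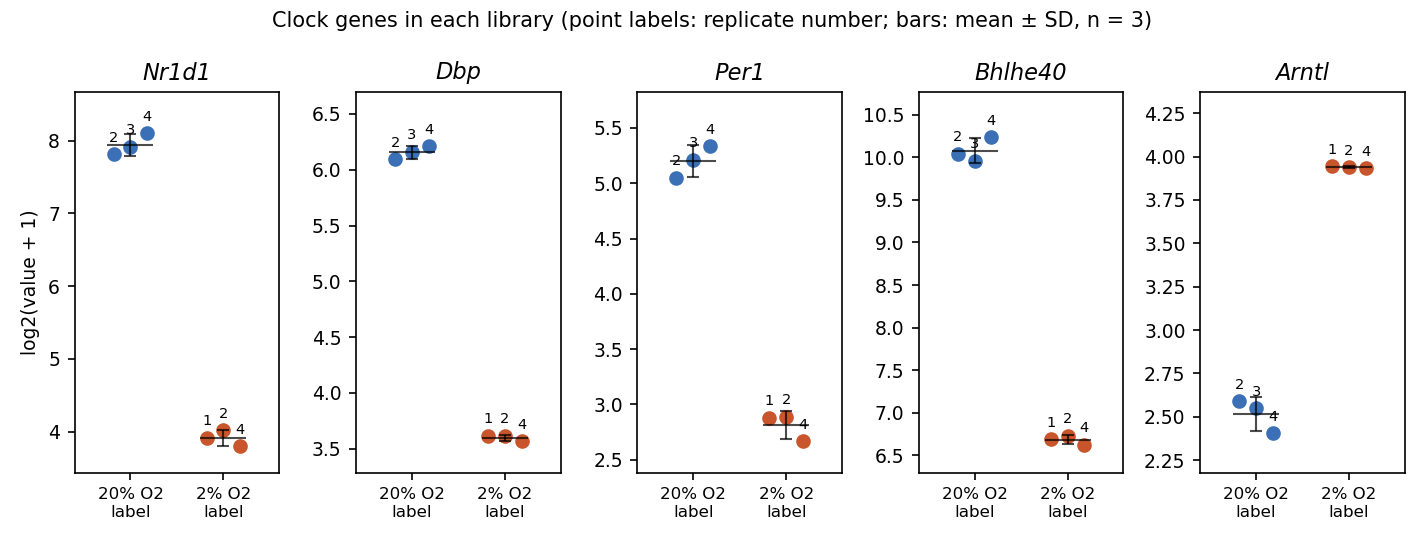
Level of each clock gene as log2(value + 1) (vertical axes, own range per gene) in the 3 libraries of each label (horizontal axis), with replicate numbers, mean and SD. Nr1d1, Dbp, Per1 and Bhlhe40 are lower and Arntl is higher in all 3 libraries labelled 2% O2, with no overlap in any gene.

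Other scalings moved the values of all 5 genes without turning a direction. Unweighted trimmed mean (TMM) factors, which assume that most genes of a table are unchanged, moved the table median to 0.0036, and quantile normalization moved it to 0.36. That assumption does not hold here, since only genes that changed between the labels were kept. The values show how far scaling can move a difference, and not which scaling is right. Arntl remained higher, by 0.27 ± 0.07 (SE) under TMM factors and 0.52 ± 0.07 under quantile normalization. Nr1d1 went to -5.28 and -4.69 under the same scalings, and Per1, the smallest of the 4 falls, to -3.56 and -3.18.

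**Figure D3:**
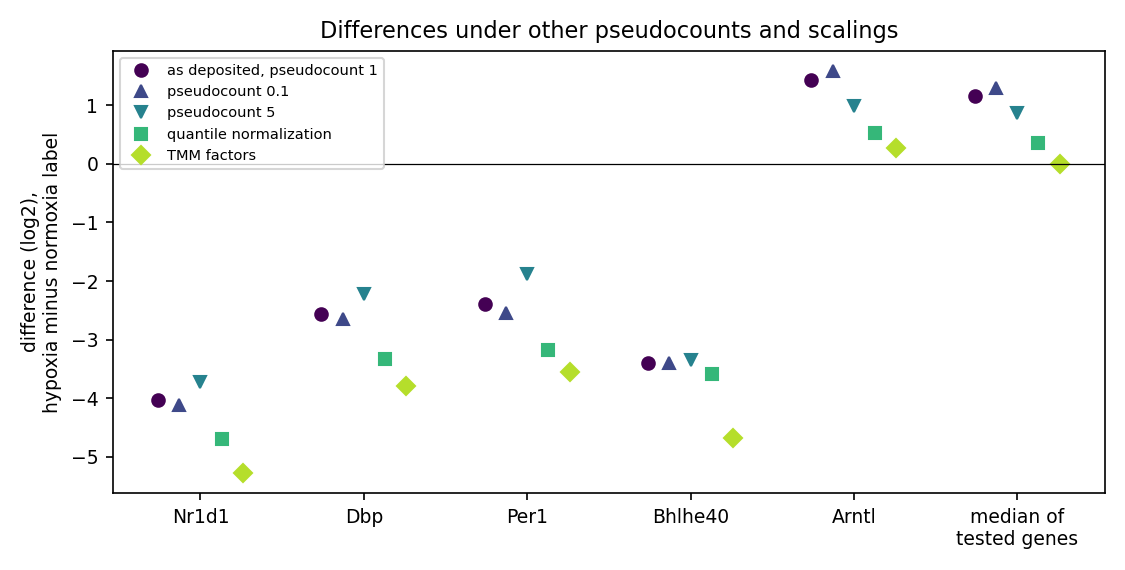
Difference between labels (vertical axis, log2 scale) of the 5 clock genes and of the median tested gene under 5 settings (symbols). Arntl lies close to the median of the table in each setting, at 0.27 with TMM factors, whereas Nr1d1 lies between -3.72 and -5.28.

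A ratio of the linear values of a pair of genes inside 1 library cancels any factor common to that library, and a difference on the log2(value + 1) scale does so only in part, because of the pseudocount. On the log2(value + 1) scale, Nr1d1 minus Arntl was 5.22, 5.37 and 5.70 under the normoxia label and -0.03, 0.08 and -0.13 under the hypoxia label. The constant offset between 2 genes has no meaning here, since the unit is not named, and only the shift between libraries is read. As a ratio of linear values with no pseudocount, Nr1d1 to Arntl was 53.2-fold lower under the hypoxia label. The same ratio to Arntl was 32.3-fold lower for Bhlhe40, 19.3-fold for Dbp and 18.1-fold for Per1. Each pair sets a lower gene against a higher one, so this separation of the labels follows from the choice of genes.

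**Figure D4:**
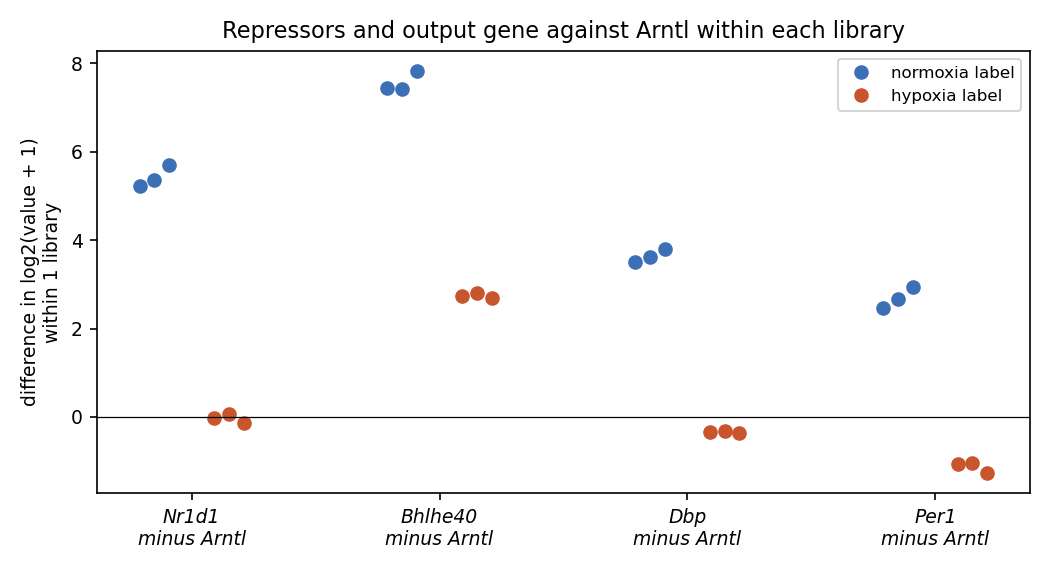
Difference in log2(value + 1) between each of 4 clock genes and Arntl inside the same library (points, 3 per label). Nr1d1 minus Arntl lies at 5.22 to 5.70 under the normoxia label and at -0.13 to 0.08 under the hypoxia label, and the other pairs show the same gap between labels.

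Libraries of 1 label also differed from each other. Under the normoxia label, replicate 4 had the highest value of Nr1d1, Dbp, Per1 and Bhlhe40 and the lowest of Arntl. Among the tested genes that were lower under the hypoxia label, 51.8% had their highest normoxia value in that library, and 51.5% of all tested genes had their lowest there. Under the hypoxia label, replicate 4 was lowest for all 5 genes, as it was for 44.6% of all tested genes. Both libraries are described as 26 h, and the summed linear value of the listed genes in the 6 libraries ran from 161067 to 183535, highest in normoxia replicate 4. With 1 library per stated hour and label, the part of time or of the library in these orders was not tested.

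The wider clock list held 29 genes, of which 9 were in the table: the 5 above, Bhlhe41, Rora, Ciart and Csnk1d. Under the hypoxia label 8 of the 9 were lower and 1 was higher, beside 20.6% lower in the whole table. The median difference of the 9 was -2.15, beside 1.15 for all tested genes. These counts describe genes that were put on the list, and kept in the table, with this comparison known, and nothing is read from them. Rora, an activator that reads the same element as Nr1d1, was at 16.0, 18.2 and 16.1 under the normoxia label and at 6.76, 7.13 and 6.02 under the hypoxia label, a difference of -1.22 ± 0.10. Ciart, a repressor of BMAL1, whose promoter window holds 3 E-boxes, had the smallest difference of the 9, at -1.04 ± 0.10, with 67.4, 80.1 and 76.0 against 39.5, 35.6 and 31.9. Csnk1d, the kinase that marks period proteins for degradation, had a difference of -1.06 ± 0.07. None of these overlapped between labels, as was so for 99.9% of tested genes. The other 20 genes of the list, among them Clock, Npas2, Per2, Per3, Cry1, Cry2, Nr1d2, Tef, Hlf and Nfil3, are outside the table and were not analysed here.

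**Figure D5:**
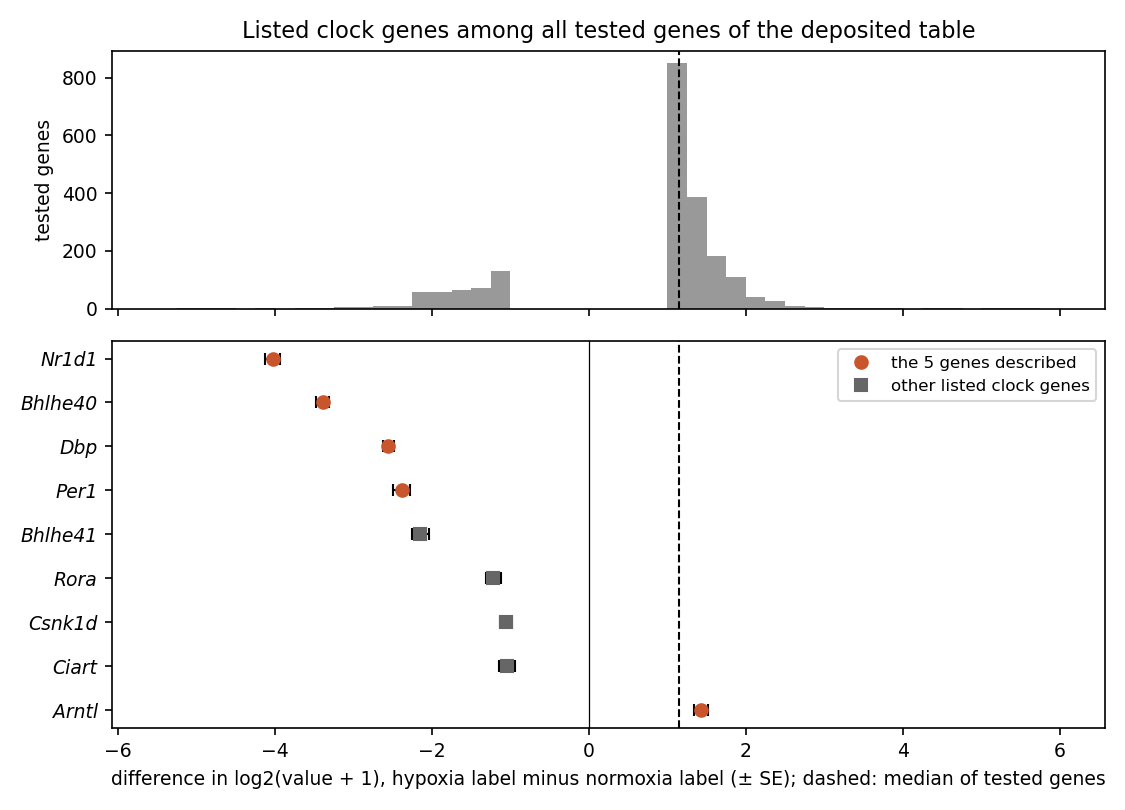
Upper panel, number of tested genes by their difference in log2(value + 1) between labels. Lower panel, the 9 listed clock genes with SE on the same axis, from Nr1d1 at -4.03 to Arntl at 1.43, with the table median of 1.15 dashed.

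Genes that the clock proteins act on were mixed. Of 14 further targets of CLOCK and BMAL1, 2 were in the table, and limma called both lower, where 20.6% of the whole table was lower. They were Nampt, the NAD salvage enzyme gene, at -1.77 ± 0.08, and the kinase gene Pim3, at -1.53 ± 0.13. Of 13 further genes known to be repressed by REV-ERB, 6 were in the table, and limma called 5 higher and 1 lower, where 79.4% of the whole table was higher. Those with the largest differences were the chemokine gene Ccl2 (4.27 ± 0.10), the cytokine gene Il6 (3.99 ± 0.12), the inflammasome gene Nlrp3 (1.86 ± 0.09) and Elovl3, of fatty acid elongation (1.59 ± 0.09). Nlrp3 and Elovl3 were low, with linear means of 0.054 and 0.221 under the normoxia label and 2.82 and 2.68 under the hypoxia label. The size of their differences therefore depends on the pseudocount. The share of 5 in 6 is near that background.

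Genes that respond to the signals acting on Per1 and Bhlhe40 were also described. Of 24 genes responsive to cAMP and CREB, 7 were in the table, and limma called 4 higher and 3 lower, beside 79.4% higher and 20.6% lower of the whole table. The median difference of the 7 was 1.81, beside the table median of 1.15. Largest in size were Sik1, a kinase that restrains CREB signalling (-3.27 ± 0.09), and the immediate early gene Ier2 (2.88 ± 0.09). The phosphatase gene Dusp1 (-2.08 ± 0.11) and the orphan receptor gene Nr4a1 (-1.91 ± 0.11) came next. The other genes of the list, all called higher, had smaller differences. Of 16 glucocorticoid-responsive genes, 6 were in the table, 3 called higher and 3 lower against the same shares, with a median of -0.05 beside the table median of 1.15. Their largest differences were Lcn2, which encodes lipocalin 2 (5.66 ± 0.41), Dusp1, Cebpd, a transcription factor gene (1.87 ± 0.14), and the metallothionein gene Mt1 (-1.77 ± 0.08). Bhlhe40 itself was not on the list of HIF targets, whose largest differences were those of Angptl4, an inhibitor of lipoprotein lipase (means of 2.63 and 6.63 under the respective labels), the enolase gene Eno2 (-3.70 ± 0.12), Slc2a1 and the oxidase gene Ero1a (-3.10 ± 0.11).

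The genes most like each clock gene were found by the root mean square difference of centred log2 profiles over the 6 libraries, among 1462 named genes with a mean linear value of at least 5. This measure mainly reflects the size of the difference between labels. Nearest to Nr1d1 were the chaperone gene Hspa1b (0.154), Eno2 (0.221) and the interferon-induced Ifit3b (0.279), and reads of Hspa1b and Ifit3b may be shared with near-identical neighbours. Bhlhe40 was nearest to Sik1 (0.103), the co-chaperone gene Dnajb1 (0.130) and the long noncoding RNA Chaserr (0.137). Dbp was nearest to the chemokine gene Cxcl10 (0.0736), the heme oxygenase gene Hmox1 (0.0915) and the cyclin gene Ccng2 (0.0957). Per1 was nearest to the noncoding RNA Malat1 (0.0680), with Ccng2 (0.0834) and Hmox1 (0.0972) next, so that Dbp and Per1 shared 2 of their 3 nearest genes. Arntl was nearest to the iron importer gene Slc11a2 (0.0157), Bet1l, of Golgi transport (0.0186), and Trub2, a pseudouridine synthase gene (0.0205). Its median distance to all candidates was 0.187, against 2.61 for Nr1d1.

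Neighbouring genes on the other strand could share reads, since the kit was stranded but how reads were assigned to strands at counting is not stated. In the GENCODE vM21 annotation, of an older build, Nr1d1 overlaps Thra, a thyroid hormone receptor gene, by 1075 bases at their 3′ ends, and Thra is outside the table. Dbp overlaps Sphk2, a sphingosine kinase gene, by 737 bases. Sphk2 was higher under the hypoxia label, at 12.8, 13.1 and 10.9 against 32.6, 33.3 and 32.2, a difference of 1.35 ± 0.09, opposite to that of Dbp. Bhlhe40 and Arntl each overlap 1 antisense gene that is outside the table, and Per1 overlaps none.

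Of 12 genes listed as osteocyte markers, 3 were in the table, and limma called all 3 higher, as it did 79.4% of all tested genes. They were Trp53inp2 (1.98 ± 0.11), podoplanin, Pdpn (1.76 ± 0.07), and Cdsn (1.15 ± 0.19). Cdsn was not among the osteocyte markers named in the plan, and it is not read as one here. The defining markers Sost, Dmp1, Phex, Mepe and Fgf23 are outside the table and were not analysed here, so the cell type could not be checked against them. Of 19 macrophage and osteoclast markers, 2 were in the table. Mmp9 was higher (1.16 ± 0.15), from low linear means of 0.0943 (normoxia label) and 1.48 (hypoxia label), and Cd68 was lower (-1.46 ± 0.11). Their part in the values of the clock genes was not tested.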

How the data were processed

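Messenger RNA was sequenced from 6 MLO-Y4 libraries, 3 per label. Per the submitters' processing notes, FastQC 0.12.0 and DRAGEN were used with the build GRCm39 (mm39). Their settings are not stated. The authors deposited log2 entries per gene and library, and a log2 fold change and an adjusted p-value for each of 2065 genes. Entries were read as log2(value + 1), because undoing that transform left no more than 3 decimals in 100% of them (tolerance 1e-06). Depth is unknown. The highest adjusted p-value that the authors deposited is 0.0926.

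Differences and standard errors came from limma 3.58.1 in R 4.3.3 (trend, robust, Benjamini-Hochberg adjusted over all tested genes, two-sided, threshold 0.05) on the 2056 genes that reached 1 in 3 or more libraries (9 left out). The fit was tested on simulated data in which most genes were unchanged, unlike in this table. That test checks the code and not the calls made here. Genes and lists were chosen with earlier results of these data known. Named genes were the 5, other listed clock genes, 4 HIF targets (Slc2a1, Vegfa, Bnip3 and Egln1), up to 4 with the largest difference of each other list, the 3 nearest profiles, and overlapping genes. Alternatives were other pseudocounts, filters and scalings, no trend, the replicate number as a block, each library left out, and a stricter threshold of 0.01. Another 21 columns were not used: 18 repeat library values and 3 hold values for mice of no sample.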

Additional observations from a re-analysis of the deposited data

How the results depend on the processing

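Nr1d1, Dbp, Per1 and Bhlhe40 were lower and Arntl was higher under each alternative run. The labels did not overlap in any of these genes, which the authors had kept for their change. Only the other scalings could therefore have turned a direction. With a pseudocount of 0.1 the differences were -2.65 for Dbp, -2.55 for Per1 and 1.59 for Arntl, and with a pseudocount of 5 they were -3.72 for Nr1d1, -2.22 for Dbp, -1.89 for Per1 and 0.99 for Arntl. Quantile normalization gave -4.69 for Nr1d1, -3.34 for Dbp, -3.18 for Per1, -3.59 for Bhlhe40 and 0.52 for Arntl, and TMM factors gave -5.28, -3.78, -3.56, -4.69 and 0.27 in that order. TMM factors also cut the number of genes called higher from 1633 to 543, since they recentre the table. The shift against Arntl within a library, -5.46 for Nr1d1, -4.82 for Bhlhe40, -3.98 for Dbp and -3.81 for Per1, became -5.70, -4.99, -4.24 and -4.14 with a pseudocount of 0.1 and -4.71, -4.34, -3.22 and -2.88 with a pseudocount of 5. With no pseudocount, an alternative added after seeing the data, it was -5.73, -5.01, -4.27 and -4.18. Quantile normalization gave -5.22 for Nr1d1, -4.11 for Bhlhe40 and -3.86 for Dbp.

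Leaving out each library in turn gave -4.10 to -3.95 for Nr1d1 and 1.37 to 1.46 for Arntl, and the clock list stayed at 8 lower and 1 higher. As no listed clock gene overlapped between labels, leaving out a library could not turn a direction. The deviations of same-numbered libraries from their label means were almost uncorrelated, with r of 0.0822 for replicate 2 and -0.0725 for replicate 4. The labels do not say that a number marks a shared culture or day, so the samples were not treated as pairs. With the replicate number as a block, which rests on replicates 2 and 4, Nr1d1 was at -4.05 and Arntl at 1.44, the list was again at 8 lower and 1 higher, and 1627 genes were called higher and 418 lower. Unnamed units and unknown depth limit any statement on low values, such as those of Arntl under the normoxia label.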
